A study of Mus musculus with 80 samples.

Results

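The 10 genes described here are targets and feedback regulators of the ERK pathway: Dusp4, Dusp6, Spry2, Spry4, Spred1, Etv4, Etv5, Egr1, Fos and Ier3. They were chosen by name with earlier results of these data known, as were the gene lists below. Counts over them are therefore a description and no support. All 10 were found among the 25965 rows of the expression table. The series holds 80 samples of mouse embryonic stem cells (ESCs) that were moved from serum to 2i. RNA-seq covered 12 of them, all from the wild-type ESC line E14, with 3 replicates in serum medium with LIF and 3 each after 6, 24 and 72 h in 2i. 2i is a serum-free N2B27 medium with LIF, the MEK inhibitor PD0325901 and the GSK3 inhibitor CHIR99021, so serum, MEK activity and GSK3 activity changed in the same step and their parts cannot be told apart. The paper describes its expression values of this transition as coming from 3 biological replicates. Nothing in the labels ties a replicate number to a separate culture, so the p-values measure the spread between these samples. For H3K9me2 ChIP-seq, E14 gave 2 bound libraries and 1 input in each of 3 media states, which were serum, 2i for 24 h, and 2i over the long term (LT2i).

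The ERK pathway carries signals of growth factor receptors, in ESCs chiefly of FGF4 through FGF receptors, by way of RAS and the kinases RAF, MEK and ERK to transcription factors in the nucleus. Active ERK switches on immediate early genes such as Egr1, Fos and Ier3 and the ETS factors Etv4 and Etv5. It also switches on its own brakes, which are the phosphatases of the Dusp family and the Sprouty (Spry) and Spred proteins. In ESCs the pathway favours exit from the naive state, and 2i was designed to block it.

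RefSeq promoter windows of GRCm38.p6 were at hand for 6 of the 10 genes (Dusp6, Spry2, Spred1, Etv5, Fos and Ier3). The 250 bases before the start were searched on both strands for AP-1 (TGANTCA), CRE (TGACG), ETS (CCGGAA), EGR (GCGNGGGCG), the TATA box (TATAAA) and the serum response element by name (SRE, the CArG box). The 3 windows printed here are those of Fos, which was not called as changed in 2i, and of Dusp6 and Spry2, which fell within 6 h. Each reads 5′ to 3′ on the strand of the gene, with motif letters in capitals.
Fos (chr12:85473640-85473889, + strand): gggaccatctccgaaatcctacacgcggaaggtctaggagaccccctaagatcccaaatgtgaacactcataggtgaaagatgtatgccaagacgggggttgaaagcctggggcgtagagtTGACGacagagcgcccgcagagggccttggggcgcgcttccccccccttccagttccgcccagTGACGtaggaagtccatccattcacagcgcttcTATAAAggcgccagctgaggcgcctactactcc
Dusp6 (chr10:99262981-99263230, + strand): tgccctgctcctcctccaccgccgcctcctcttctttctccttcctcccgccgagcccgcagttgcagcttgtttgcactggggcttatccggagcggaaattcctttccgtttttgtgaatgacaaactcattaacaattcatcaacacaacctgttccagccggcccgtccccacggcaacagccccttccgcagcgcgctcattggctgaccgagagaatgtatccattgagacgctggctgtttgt
Spry2 (chr14:105896820-105897069, - strand): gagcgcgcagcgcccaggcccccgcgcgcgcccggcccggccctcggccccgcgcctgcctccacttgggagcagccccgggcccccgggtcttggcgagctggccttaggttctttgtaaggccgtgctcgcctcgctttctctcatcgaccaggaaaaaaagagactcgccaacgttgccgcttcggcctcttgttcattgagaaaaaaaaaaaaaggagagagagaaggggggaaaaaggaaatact

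The Fos window held the letters of CRE at 2 places and those of TATA at 1, with TATA ending 28 bases before the start. Among 32851 RefSeq windows of this length outside chromosome 18, 17.8% held CRE, 12.4% TATA, 12% ETS, 6.75% AP-1, 4.7% EGR and 1.47% SRE. None of the other 5 genes held any of the 6 motifs in its windows, which says only that these letters are not in these 250 bases. The GC content of the printed windows was 58.4% (Fos), 56.4% (Dusp6) and 62.4% (Spry2).

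Expression is given as the deposited log2 value per gene, which is corrected for gene length and library depth, so levels of different genes can be set side by side. Whole reads were recovered from these values for all but 39 genes. The recovered reads came to 10317841 to 15271213 per library, without the reads of those 39 genes. Changes were tested with limma over all genes whose mean log2 value was 0 or more (11376 genes), and a call needed a p under 0.05 after Benjamini-Hochberg adjustment. Dusp4, Dusp6, Spry2, Spred1, Etv4, Etv5 and Ier3 passed that filter, which makes 7 of the 10. Spry4, Egr1 and Fos had means of -2.5, -0.87 and -0.06 and were dropped by it. Their values come from the same fit without the filter (19814 genes). Spry4 and Egr1 were lost to the filter through their low values in 2i, and Dusp4 and Dusp6 passed it through their high values in serum, so that the counts over the 7 genes are a description and no support.

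Pluripotency markers were high in all groups, with a mean log2 value for Pou5f1 of 8.29 in serum and 8.21 at 72 h, while Nanog rose from 6.78 to 8.49 and Utf1 fell from 7.8 to 4.36. The summed linear level of 5 feeder fibroblast markers was 7.59 to 9.75 in serum and 4.41 to 4.94 at 72 h, against 969 to 1040 for 5 ESC markers in serum. The 5 primitive endoderm markers summed to 3.33 to 4.36 and the 4 mesoderm markers to 1.32 to 3.5 over all groups. The 4 neural markers summed to 47.2 to 49 in serum, 91.3 to 93.9 at 6 h and 27.9 to 33 at 72 h. The rise at 6 h came from Tubb3 alone (mean log2 value 5.38 to 6.49). Pax6 (-0.04 to -2.47), Sox1 (0.04 to -0.76) and Neurod1 (2.09 to 1.06) had lower means at 6 h than in serum. The part of these cell types in the values of the ERK genes was not tested, and in bulk samples fewer cells of a type and less RNA per cell cannot be told apart.

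Reads of the 10 genes together dropped at once after transfer. Scaled to a library of 1000000 recovered reads (RPM), they came to 1406, 1400 and 1545 in serum, 734, 726 and 751 at 6 h, 333, 409 and 452 at 24 h, and 434, 385 and 404 at 72 h. All libraries in 2i lay below all libraries in serum. Much of what was left was Etv5, whose share of these reads went from 40.7% to 42.1% in serum to 77.7% to 82.5% in 2i. Without Etv5, the other 9 genes held 825 to 894 RPM in serum, 141 to 147 at 6 h, 74.2 to 79 at 24 h and 79 to 87.2 at 72 h.

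**Figure D1:**
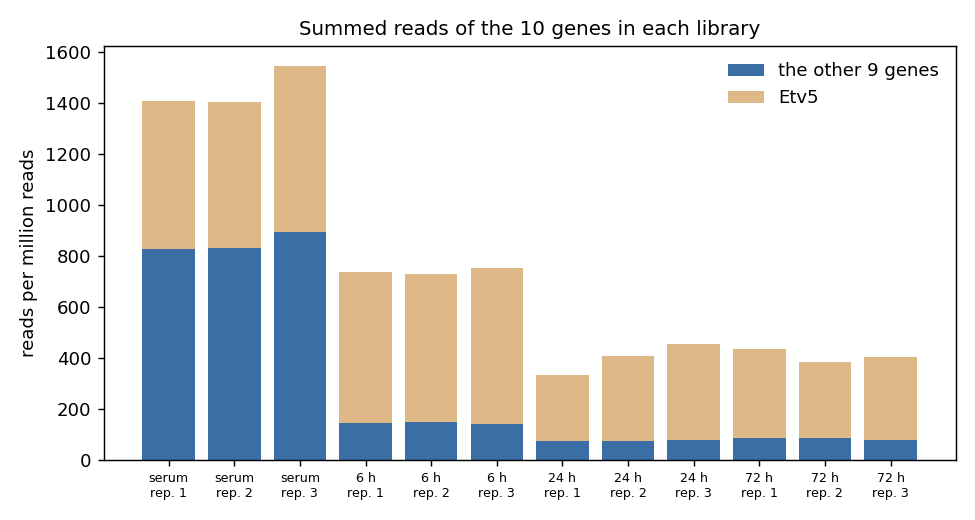
Reads of the 10 genes in RPM (y axis) in each of the 12 libraries, split into Etv5 and the other 9 genes. The 3 serum bars reach 1400 to 1545, the 6 h bars 726 to 751, and the 24 and 72 h bars 333 to 452, most of it Etv5.

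At 6 h, 6 of the 7 genes that passed the filter were called lower than serum and none higher, where 6.01% of all tested genes were called lower and 8.24% higher. The gene not called was Etv5. Fitted on the 6 libraries compared alone, calls over all tested genes at 6 h went from 1621 to 3239, with 6 of the 7 called as before. Without the filter, Spry4 and Egr1 were also called lower and Fos was not, which makes 8 of 10 against 4.54% of 19814 genes. In the same 8 of 10 genes all 3 libraries at 6 h lay below all 3 in serum. The share was 20.3% of the 11376 genes that passed the filter, and none was computed without it. The median log2 change of the 7 genes was -2.12, and that of all tested genes 0.01.

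At 24 h all 7 were called lower, where 29.1% of tested genes were lower and 33.6% higher. Without the filter it was 9 of 10, all but Fos, against 21.8%. At 72 h, 6 of 7 were lower (26.0% lower and 24.5% higher among tested genes) and 8 of 10 without the filter (20.7%), since Ier3 was not called at that time. The 3 values lay below all serum values in 9 of 10 genes at both times. Among genes that passed the filter the share was 30.4% at 24 h and 32.0% at 72 h. The median log2 change of the 7 genes was -2.66 at 24 h and -2.92 at 72 h, beside 0.1 and -0.01 for all tested genes. Over all 10 genes without the filter the medians were -2.45, -3.65 and -3.67 at the 3 times. The comparisons with serum share the same 3 serum libraries.

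**Figure D2:**
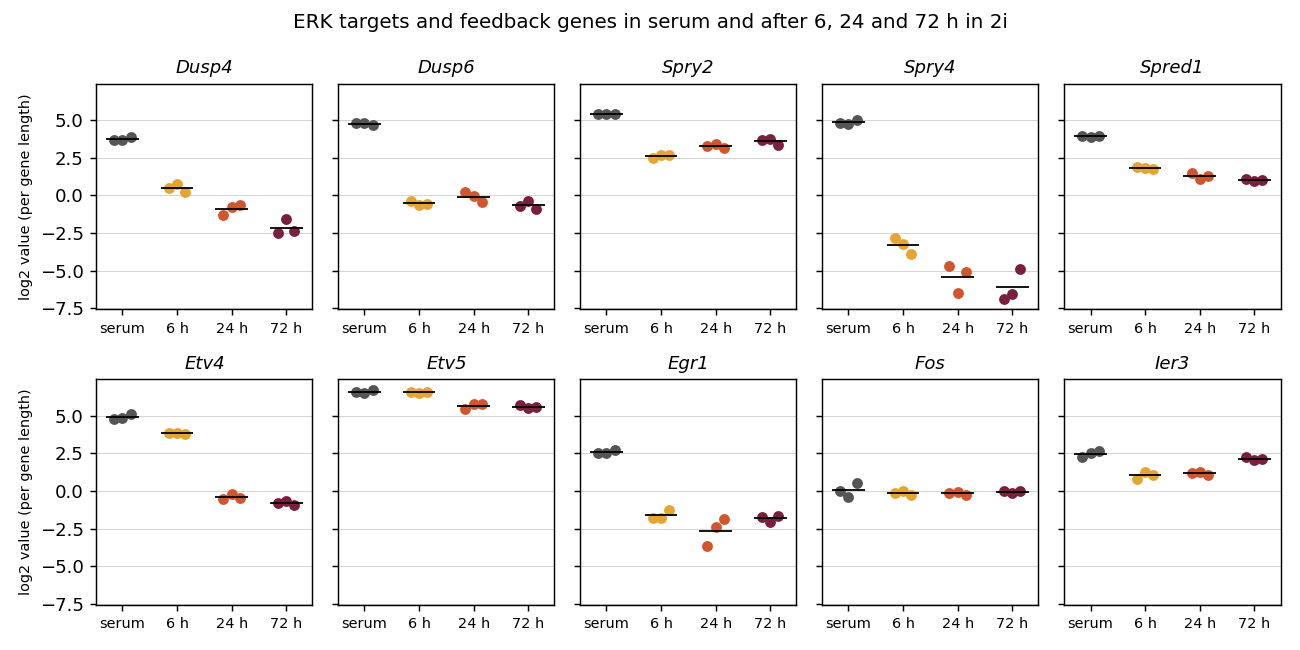
Deposited log2 value per library (y axis, per gene length) for each gene in serum and after 6, 24 and 72 h in 2i. Points are the 3 replicates and the line is their mean. Spry4 drops from 4.84 to -3.31 by 6 h, Etv4 falls mainly between 6 and 24 h, and Fos lies between -0.39 and 0.56 in all libraries.

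Among the feedback inhibitors, Spry4 fell furthest. It encodes a Sprouty protein that restrains signalling from receptor tyrosine kinases to ERK, and lies on chromosome 18. Its reads numbered 2346, 1917 and 3361 in serum, 11, 9 and 6 at 6 h, 3, 0 and 3 at 24 h, and 0, 0 and 3 at 72 h. Every library in 2i was thus close to empty of a gene that ranked with Etv4 and Dusp6 in serum. By 6 h it had fallen by 8.15 ± 0.56 on the log2 scale (SE, limma adjusted p = 5.57e-06).

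Per unit of depth, the reads of Spry4 at 6 h were 0.358% of those in serum, with an exact 95% counting interval of 0.234% to 0.525%. The share was 0.0794% (0.0291% to 0.173%) at 24 h on 6 reads and 0.0371% (0.00765% to 0.108%) at 72 h on 3 reads. Intervals of this kind cover counting error only. The intervals of 24 and 72 h overlap, and the step between these times was not called (limma adjusted p = 0.416). The fitted log2 changes of the later times rest on the value entered for 0 reads, and their limma adjusted p-values against serum were 3.08e-07 and 1.02e-07.

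Spry2, a Sprouty gene as well (chr14:105891949-105896819, - strand), also fell by 6 h but then partly came back. Its log2 values were 5.38, 5.4 and 5.42 in serum, 2.48, 2.69 and 2.7 at 6 h, 3.3, 3.4 and 3.16 at 24 h, and 3.69, 3.72 and 3.37 at 72 h. The groups in 2i stayed below serum in every library, and those at 24 and 72 h lay above those at 6 h. By 6 h it had moved by -2.77 ± 0.12 on the log2 scale (SE, limma adjusted p = 9.98e-08), a 6.83-fold lower level, and by 72 h the level was 3.5-fold below serum (limma adjusted p = 3.21e-07). Between 6 and 24 h it rose by 0.66 ± 0.12 (limma adjusted p = 0.000824). With the trend over gene span removed from each library, that rise was 0.237 with an adjusted p of 0.0887, and the rise from 24 to 72 h, 0.31 and not called before, was 0.588 and called (adjusted p = 0.00249).

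Spry2 and Spry4 thus stood 0.56 apart in mean log2 value in serum and 5.94 apart at 6 h, the last time at which every library held reads of Spry4.

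Spred1 (chr2:117121374-117182279, + strand) encodes a protein related to the Sproutys that keeps RAS from activating RAF. Its log2 values ran from 3.9 to 3.95 in serum, 1.77 to 1.88 at 6 h, 1.08 to 1.45 at 24 h and 0.93 to 1.08 at 72 h. Each group in 2i was separate from serum, and the 24 and 72 h groups touched. The step from 6 to 24 h was -0.54, and with the trend over gene span removed it was -0.219 and not called (adjusted p = 0.134), while the step from 24 to 72 h, -0.26 and not called before, was -0.441 and called (adjusted p = 0.0168). The changes against serum were -2.12, -2.66 and -2.92 (each SE 0.11, limma adjusted p = 3.46e-07, 2.25e-08 and 5.62e-09).

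Dusp6 (chr10:99263231-99267488, + strand) encodes the cytoplasmic phosphatase that acts on ERK itself. Its log2 values were 4.81, 4.8 and 4.64 in serum, -0.37, -0.64 and -0.57 at 6 h, 0.19, -0.04 and -0.46 at 24 h, and -0.72, -0.37 and -0.89 at 72 h. The fall was made by 6 h, and the later groups stayed far below serum. The change from 6 to 24 h was 0.42 and not called, but it was 0.746 and called with quantile normalisation (adjusted p = 0.0225) and 0.598 and called without 24 h replicate 3 (adjusted p = 0.00848). It was also called without 72 h replicate 2 (adjusted p = 0.0487) and with the replicate number as a block in the fit (adjusted p = 0.0323). With the trend over gene span removed it was -0.017 and not called (adjusted p = 0.904). Dusp6 was 38.8-fold lower than in serum at 6 h (log2 change -5.28 ± 0.18, SE, limma adjusted p = 3.72e-08) and 42.6-fold lower at 72 h (limma adjusted p = 2.44e-09). The step of -0.56 ± 0.18 from 24 to 72 h was called (limma adjusted p = 0.0411) but lost its call in 16 of 21 alternatives.

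Dusp4 (chr8:34807297-34819894, + strand), a nuclear phosphatase of MAP kinases, fell in 3 steps. Its reads were 662, 550 and 909 in serum, 66, 83 and 62 at 6 h, 19, 28 and 39 at 24 h, and 11, 17 and 10 at 72 h. No group overlapped the next in log2 value, and the 3 means after serum were 0.49, -0.9 and -2.16. The level was 9.55-fold, 25.1-fold and 60-fold below serum at the 3 times (limma adjusted p = 7.88e-06, 1.69e-07 and 1.62e-08). The later steps were -1.39 ± 0.26 from 6 to 24 h and -1.26 ± 0.26 from 24 to 72 h (SE, limma adjusted p = 0.000976 and 0.00404). Fitted on the 6 libraries of 24 and 72 h alone, the last step had an adjusted p of 0.0877.

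**Figure D3:**
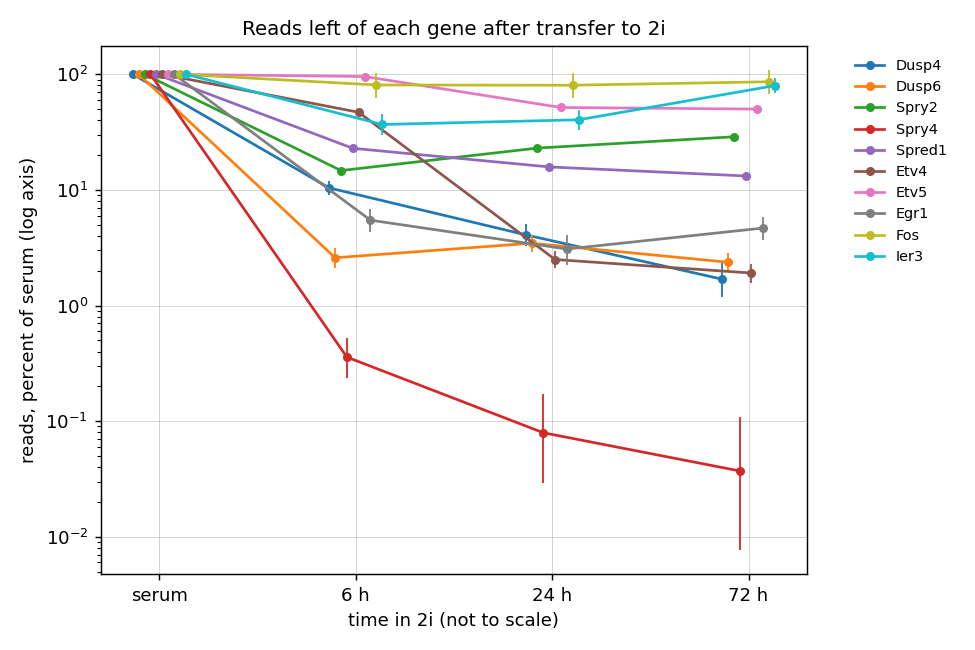
Reads of each gene per unit of depth as percent of serum (log axis) at each time, with exact 95% counting intervals as bars. Spry4 ends at 0.0371%, Dusp4, Dusp6, Etv4 and Egr1 lie between 1.69% and 4.68% at 72 h, and Ier3 returns from 36.8% to 79.8%.

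The ETS factors Etv4 and Etv5, both of the Pea3 group, had their largest step between 6 and 24 h. Etv4 (chr11:101769742-101785371, - strand) held log2 values of 4.79, 4.85 and 5.09 in serum, 3.88, 3.84 and 3.81 at 6 h, -0.51, -0.19 and -0.45 at 24 h, and -0.8, -0.64 and -0.9 at 72 h. All 4 groups but those of 24 and 72 h were well apart, with the largest drop after 6 h. The change was -1.07 ± 0.12 at 6 h (SE, limma adjusted p = 0.000131), where 46.9% of serum reads remained. It was -4.23 ± 0.12 from 6 to 24 h (limma adjusted p = 1.05e-08), which left it 39.4-fold below serum.

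Etv5 (chr16:22381309-22439719, - strand) was the most abundant of the 10 genes in every group. Its log2 values were 6.56, 6.52 and 6.73 in serum, 6.56, 6.5 and 6.6 at 6 h, 5.43, 5.75 and 5.75 at 24 h, and 5.72, 5.52 and 5.58 at 72 h. Serum and 6 h overlapped, as did 24 and 72 h, with a gap between the pairs. At 6 h the change was -0.05 ± 0.12 (SE, limma adjusted p = 0.898). At 24 h it was -0.96 ± 0.12 (limma adjusted p = 4.71e-05) and at 72 h -1 ± 0.12 (limma adjusted p = 3.63e-05), so that 50.0% of serum reads were still there. In serum the mean log2 values of Etv4 and Etv5 were 1.69 apart, and at 72 h 6.39 apart.

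Of the immediate early genes, Egr1 and Ier3 were called lower at 6 h and Fos was not. Egr1, a zinc finger transcription factor on chromosome 18, had 477, 409 and 686 reads in serum, 22, 24 and 36 at 6 h, 6, 15 and 27 at 24 h, and 31, 20 and 27 at 72 h. All libraries in 2i lay far below serum, and the 24 h replicates were the most scattered. The level was 18.5-fold lower at 6 h (log2 change -4.21 ± 0.38, SE, limma adjusted p = 3.54e-05) and 21.4-fold lower at 72 h (limma adjusted p = 4.32e-06). The step of -1.04 ± 0.38 from 6 to 24 h (limma adjusted p = 0.0458) kept its call in 6 of 20 alternatives. Without the lowest library, 24 h replicate 1, it was -0.528 with an adjusted p of 0.135.

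Fos (chr12:85473890-85477273, + strand), which encodes a partner in the AP-1 factor, was already low in serum and was not called at any time. Its reads were 45, 28 and 79 in serum, 37, 43 and 37 at 6 h, 37, 40 and 44 at 24 h, and 54, 39 and 46 at 72 h. The serum libraries spanned all values in 2i. The log2 changes against serum were -0.2, -0.2 and -0.11 (each SE 0.22, limma adjusted p = 0.721, 0.502 and 0.75). Counting intervals for its reads as percent of serum were 62.9% to 103% at 6 h and 68% to 109% at 72 h. Without serum replicate 3 the changes at 6, 24 and 72 h turned to 0.047, 0.048 and 0.136, again not called.

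Ier3 (chr17:35821684-35822923, + strand), an early response gene linked to cell survival, fell and later rose again. Its log2 values were 2.28, 2.52 and 2.64 in serum, 0.82, 1.24 and 1.06 at 6 h, 1.23, 1.29 and 1.06 at 24 h, and 2.25, 2.09 and 2.14 at 72 h. The 6 and 24 h libraries overlapped and lay below all others, and those of 72 h ended just under the lowest serum value. Against serum, the 6 h libraries differed by -1.44 ± 0.14 (SE, limma adjusted p = 3.26e-05) and those of 24 h by -1.28 ± 0.14 (limma adjusted p = 1.81e-05). From 24 to 72 h the gene rose by 0.97 ± 0.14 (limma adjusted p = 0.000486), and at 72 h the difference from serum was -0.32 ± 0.14 (limma adjusted p = 0.0757). Without serum replicate 1 that difference was -0.418 and called (adjusted p = 0.0431).

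**Figure D4:**
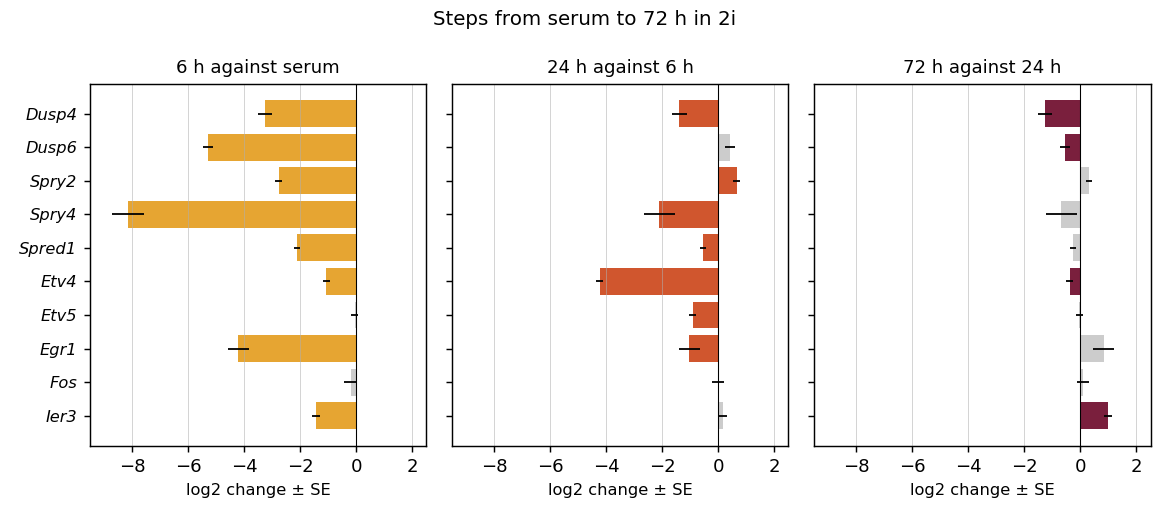
Log2 change ± SE of each gene (x axis) at 6 h against serum, 24 h against 6 h and 72 h against 24 h. Coloured bars passed an adjusted p of 0.05 in limma and grey bars did not. Etv4 shows its largest step, -4.23, between 6 and 24 h, and Spry2 (0.66) and Ier3 (0.97) turn upward.

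The steps between times sorted the genes further. From 6 to 24 h, Dusp4, Spred1, Etv4 and Etv5 were called lower and Spry2 higher among the 7 that passed the filter, where 28.0% of tested genes fell and 31.5% rose. Without the filter Spry4 (-2.11 ± 0.56, SE, limma adjusted p = 0.0112) and Egr1 were called lower too (21.3% of genes). The step of Spry4 rests on 0 to 11 reads per library, and on a damped log scale, log2 of the linear value plus 1, it was -0.106 and not called (adjusted p = 0.285). From 24 to 72 h, Dusp4, Dusp6 and Etv4 were called lower and Ier3 higher, against 14.6% and 15.2% of tested genes. The step of -0.39 ± 0.12 in Etv4 (limma adjusted p = 0.0343) lost its call in 12 of 22 alternatives. Leaving out 24 h replicate 3 took the calls over all genes from 3388 to 6197 in this comparison, with 4 of 7 members called as before.

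The order of the genes was rearranged in 2i. In serum the mean log2 values ran from Etv5 (6.6) over Spry2 (5.4), Etv4 (4.91), Spry4 (4.84), Dusp6 (4.75), Spred1 (3.93), Dusp4 (3.74), Egr1 (2.6) and Ier3 (2.48) to Fos (0.06). The neighbours Etv4, Spry4 and Dusp6 overlapped there, as did Egr1 and Ier3, and the other neighbours did not. At 72 h the order was Etv5 (5.61), Spry2 (3.59), Ier3 (2.16), Spred1 (1.01), Fos (-0.05), Dusp6 (-0.66), Etv4 (-0.78), Egr1 (-1.82), Dusp4 (-2.16) and Spry4 (-6.1, which rests on the value entered for 0 reads). Only Dusp6 and Etv4, and Egr1 and Dusp4, overlapped as neighbours at that time. Fos thus went from the lowest of the 10 to the middle without a called change.

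Other inhibitors of the pathway, taken from a list of 12 of which 9 were tested, moved in both directions at 6 h, with 4 lower and 2 higher (6.01% and 8.24% of all tested genes). At 24 h 5 were lower and none higher (29.1% and 33.6%), and at 72 h 5 were lower and 1 higher (26.0% and 24.5%). Their median log2 changes were -0.45, -0.76 and -0.76. Spry1, another Sprouty gene, went from 2.29 in serum to 0.38 at 6 h and 0.33 at 72 h, with 1.53 between at 24 h (log2 changes -1.9 and -1.95 at 6 and 72 h, limma adjusted p = 4.07e-06 and 6.05e-07). Il17rd, a membrane inhibitor of FGF signalling also called Sef, went from 2.95 in serum to 1.57 by 6 h, was lowest at 24 h (0.64), and came to 1.2 at 72 h, with limma adjusted p = 0.000845 and 3.58e-05 for 6 and 72 h against serum.

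Of 19 other immediate early and growth factor response genes, 14 were tested, and 6, 8 and 8 were called lower at 6, 24 and 72 h, with 1, 4 and 3 higher. The same shares of all tested genes stand beside these counts, and 4 of 14 higher at 24 h is close to the 33.6% of all genes. Their median log2 changes were -0.29, -0.52 and -0.56. Phlda1 fell from 2.86 in serum to 0.13 at 6 h and -0.25 at 72 h (log2 change -2.73 at 6 h, limma adjusted p = 8.9e-07). Atf3, a stress-responsive transcription factor, went the other way, from 0.3 to 2.05 at 6 h (log2 change 1.75, limma adjusted p = 0.000434). Ccnd1, the cyclin that drives entry into S phase, stood at 4.85 in serum and 4.94 at 6 h and fell to 2.18 by 72 h (log2 change -2.67, limma adjusted p = 1.25e-08). Egr2, Egr3, Egr4, Fosb and Fosl1 were too low to pass the filter.

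Upstream, the counts of called genes at 6 h were close to the shares of all tested genes (6.01% lower and 8.24% higher) and are no result about the pathway. Of 18 ligands, receptors and adaptors, 14 were tested, with 1 lower and 2 higher at 6 h, 9 lower and 1 higher at 24 h (29.1% and 33.6% of all tested genes), and 4 lower and 2 higher at 72 h (26.0% and 24.5%; median log2 changes 0.05, -0.55 and -0.16). The receptor gene Fgfr1 rose from 3.09 to 4.02 at 6 h (limma adjusted p = 0.00199) and was back at 2.99 by 72 h, while the adaptor gene Shc1 fell from 4.26 to 3.85 at 6 h (limma adjusted p = 0.00998). At 72 h the exchange factor gene Sos2 was higher by 1.02 (limma adjusted p = 0.0017) and Fgfr2 lower (log2 change -0.96, limma adjusted p = 9.7e-05). All 14 genes of the kinase cascade were tested, with none lower and 1 higher at 6 h, 5 lower and 3 higher at 24 h, and 2 lower and 5 higher at 72 h (median log2 changes 0, 0.02 and 0.07). These counts stand beside the same shares of all tested genes. With the trend over gene span removed, the cascade had 2 lower and 6 higher at 24 h (median log2 change 0.08). Calls over all genes at 24 h were then 7112 in place of 7131, so the balance of directions in the cascade depends on the processing.

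The scaffold gene Ksr1 was the cascade gene called at 6 h (log2 change 0.91, limma adjusted p = 0.02). It was 0.19 above serum at 24 h and not called (limma adjusted p = 0.485), and it stood 1.41 above serum at 72 h (limma adjusted p = 0.000375). Braf, a RAF kinase gene, was lower at 72 h (log2 change -1.73, limma adjusted p = 0.00139), with values of 3.1 to 3.27 in serum and a wide 0.84 to 2.03 at 72 h. Among 6 other ETS factors, 4 were tested. None was called at 6 h, 2 were lower at 24 h, and at 72 h 2 were lower and 2 higher, beside 29.1% lower at 24 h and 26.0% lower and 24.5% higher at 72 h among all tested genes (median log2 changes 0, -0.42 and -0.32). Among these 4, Ets1 (log2 change -1.06, limma adjusted p = 0.00062) and Elk4 (-1.01, limma adjusted p = 0.0304) had the largest changes at 72 h. Without the filter all 6 were tested, with 2, 4 and 4 lower at 6, 24 and 72 h and 2 higher at 72 h. Their median log2 changes were then -0.15, -0.99 and -1.03, and 4.54%, 21.8% and 20.7% of all genes were lower.

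The mean profile of the 7 members that passed the filter was set against 11369 other genes over the 12 libraries. The nearest was Myc, a transcription factor gene, with Pearson r = 0.998. Its mean log2 value was 5.17 in serum and went to 1.24, -0.32 and -0.62 at the later times. Next came Ext1 and Enc1 (both r = 0.99), Glul (r = 0.988) and Dusp5 (r = 0.985), whose mean went from 2.86 in serum to 1.88, 1.39 and 1.19. Ext1 makes heparan sulfate chains, Glul encodes glutamine synthetase, and Dusp5 is a nuclear phosphatase of ERK. These values describe likeness over libraries that fall into 4 groups.

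H3K9me2, a histone mark of silent chromatin, was read over these genes from the log2 mean signal of the 2-kb bins that overlap each gene. Bound signal ran from 0.25 to 3.57 over the 10 genes, below the input in every medium (4.23 to 5.06). The median over all genes also lay below its input (4.6 to 4.66), at 3.7 and 3.62 in serum, 3.6 and 3.58 at 24 h, and 2.8 and 2.73 in LT2i. In serum and at 24 h all 10 genes were under that median in both libraries, and in LT2i Spry4 was above it in both and Spred1 in 1 (2.91). Small genes rest on few reads, from 2 to 6 per bound library for Ier3, from 3 to 7 for Fos, and from 4 to 9 for Dusp6 and for Spry2.

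At 24 h none of the 10 genes was called in limma, and neither was any other gene (0.0% of 23602). At an unadjusted p under 0.05 there were 2758 genes, 3 of the 10 among them. In LT2i, 4 of the 10 were called where 55.5% of all genes were called in either direction, so the count is no more than the background. The median log2 change of all genes in LT2i was -0.6.

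Etv4 (log2 signal 2.67 and 2.22 in serum, 0.99 and 1.36 in LT2i), Etv5 (2.79 and 2.39 against 1.62 and 1.74) and Egr1 (3.04 and 3.47 against 2.34 and 1.36) were lower in LT2i. Their changes were -1.27 ± 0.25, -0.91 ± 0.2 and -1.41 ± 0.37 (SE, limma adjusted p = 0.00879, 0.0129 and 0.022). The call of Etv5 was lost without serum replicate 1 (-0.709) or LT2i replicate 1 (-0.847), and that of Egr1 without serum replicate 1 (-1.621), serum replicate 2 (-1.191) or LT2i replicate 2 (-0.915). After quantile normalisation, which removes the shift shared by all genes, none of them was called, and that of Etv5 turned to 0.204. With bins within 5000 bases of the start in place of the gene span, Etv4 (-0.542, adjusted p = 0.205) and Etv5 (-0.333, adjusted p = 0.317) were not called, and Fos was (-1.129, adjusted p = 0.0036). Spry4 moved against the shift. Its signal was 2.1 and 1.65 in serum, 3.49 and 3.48 at 24 h, and 3.57 and 2.86 in LT2i. The difference was 1.33 ± 0.28 in LT2i (SE, limma adjusted p = 0.0114), and that of 24 h was 1.61 ± 0.28 (limma adjusted p = 0.384). With those bins near the start, the LT2i difference of Spry4 was 0.56 with an adjusted p of 0.131. It was 1.112 with an adjusted p of 0.0505 without serum replicate 2.

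**Figure D5:**
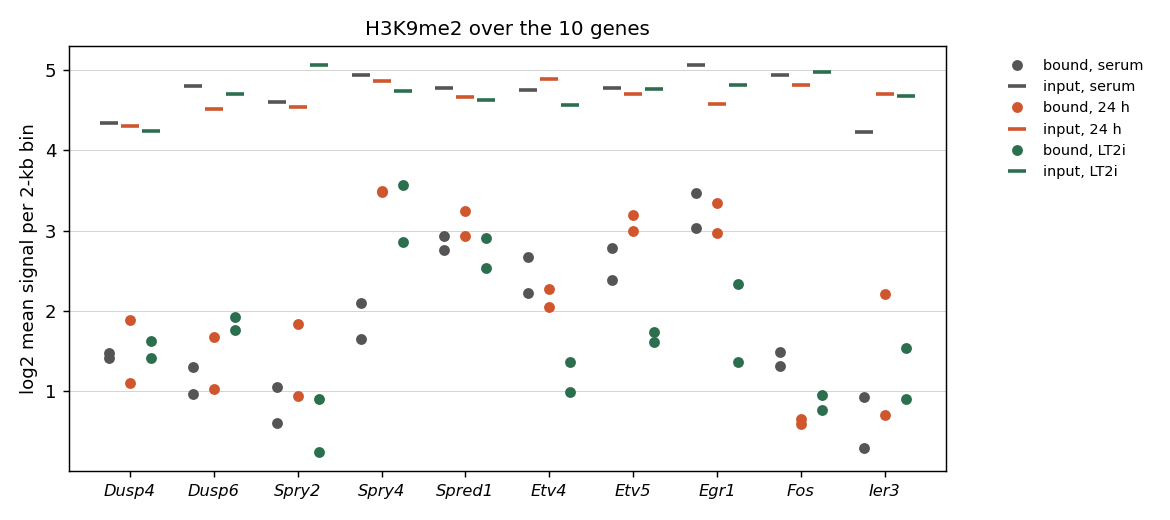
H3K9me2 as log2 mean signal per 2-kb bin (y axis) over each gene, with bound libraries as points and inputs as bars in serum, 24 h of 2i and LT2i. All bound values lie below their inputs, Spry4 is higher in 2i than in serum, and Etv4, Etv5 and Egr1 are lower in LT2i.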

How the data were processed

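RNA of 12 E14 samples was sequenced with an unstranded kit, so reads of a gene and of an overlapping antisense gene cannot be told apart. The values deposited by the authors are on a log2 scale, 1 per gene, with gene length and depth corrected for, and set to a common 75th percentile (2.51), with 0.9 entered for 0 reads. The submitters' processing notes name TopHat2 2.0.11 and Trim Galore 0.3.5 without a role, and GRCm38 for gene positions. Which counter was used is not given in the sources. The ChIP-seq values as deposited are log2 reads in bins of 2 kb, scaled for depth and without input subtraction.

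Whole reads (tolerance 0.02) were recovered for 25926 of 25965 genes, which is 99.85%. The search ended at a set highest read count. Library totals leave out the genes not recovered, so RPM values would be lower with them. Serum replicates 1 and 2 differed by a chi-square of 1.39 per gene, where counting error alone would give about 1. The other replicate pairs differed by 2.62 to 96.87. None was treated as a copy. For serum replicates 1 and 2 this measure cannot tell separate cultures from the same RNA sequenced again. The log2 values were tested in limma 3.58.1 (R 4.3.3) in 1 fit over 12 libraries, with an intensity trend in the prior and genes kept at a mean of 0 or more. Benjamini-Hochberg adjustment ran over all genes tested. That filter dropped Spry4, Egr1 and Fos, which were fitted without it. H3K9me2 was fitted likewise over 6 bound libraries. The fit was tested on simulated data.

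The members and lists were chosen with earlier results of these data known. All 10 members are named, and from each list at most 4 genes, those with the 2 largest called changes at 6 h and at 72 h. The 5 genes nearest to the mean profile of the members are named too. Bisulfite files were not used here, since their build is NCBIM37 and no gene positions of that build were at hand.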

Additional observations from a re-analysis of the deposited data

Results flagged for a closer look

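In these results the difference from serum changed between 2 times, as tested by the step between them in limma. Groups of 3 samples were too small for a formal test of single outlying samples, but fits without single libraries are given below. At 24 h, replicate 3 differed most from the others, with a chi-square per gene of 96.87 and 55.21. Between replicates 1 and 2 it was 16.06. From 6 to 24 h the log2 steps were -1.39 for Dusp4, 0.66 for Spry2, -2.11 for Spry4 (on 0 to 11 reads per library), -0.54 for Spred1, -4.23 for Etv4, -0.91 for Etv5 and -1.04 for Egr1. From 24 to 72 h they were -1.26 for Dusp4, -0.56 for Dusp6, -0.39 for Etv4 and 0.97 for Ier3. Spry2 and Ier3 moved back toward serum, and the others moved further from it. Their causes were not tested.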

How the results depend on the processing

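The calls of the ERK genes against serum kept their direction under all alternatives, and the counts of 6, 7 and 6 called at 6, 24 and 72 h stayed within 1.5 times. At these times leaving out single libraries gave 6 to 6, 7 to 7 and 6 to 7 called. Ier3 at 72 h was called after removal of the gene span trend (-0.53, adjusted p = 0.0427) and without serum replicate 1 (-0.418), and a required absolute log2 change of 1 or more left Etv5 uncalled at 24 and 72 h. The steps between times were less firm. Of 5 calls from 6 to 24 h, 3 were left with the gene span trend removed and 2 at an absolute log2 change of 1 or more. Of 4 calls from 24 to 72 h, 2 were left on the damped log scale and 1 with the 6 libraries compared alone. At an absolute change of 1 or more 1 was left, and recovered reads with precision weights left 2. Without the filter these reads also gave 2 calls. A filter at a mean of 1 left Dusp4 and Dusp6 untested, and Etv4 and Ier3 kept their calls among the 5 genes tested. With the gene span trend removed 4 were called in that step, but only 2 of them as before, since Dusp6 (-0.271) and Etv4 (-0.256) lost their calls and Spry2 (0.588) and Spred1 (-0.441) gained them. The fits on recovered reads were chosen after seeing the data, as was the use of the planned fit without the filter for Spry4, Egr1 and Fos. Leaving out single libraries gave 2 to 4 calls in that step, and gained calls for Spry2 without 72 h replicate 3 (0.422), Spred1 without 24 h replicate 2 (-0.36) and Egr1 without 24 h replicate 3 (1.212). Quantile normalisation gave 4 lower and 2 higher from 6 to 24 h and 1 lower and 2 higher from 24 to 72 h. The cause was not tested.

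In expression, directions turned only in changes that were not called. With the gene span trend removed the change from 6 to 24 h was -0.017 for Dusp6, -0.245 for Fos and -0.415 for Ier3. For Fos it was -0.011 with quantile normalisation, 0 on the damped scale, -0.004 on recovered reads and -0.073 to 0.065 without single libraries. Leaving these out also gave Fos -0.426 to 0.047 at 6 h, -0.425 to 0.048 at 24 h and -0.336 to 0.136 at 72 h against serum. Etv5 had 0.111 from 24 to 72 h with quantile normalisation, -0.145 to 0.016 without single libraries, and -0.09 to 0.013 at 6 h.

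For H3K9me2 in LT2i, bins near the start gave 2 calls, Egr1, which was among the 4, and Fos (-1.129), which was not. Quantile normalisation gave 2 as well, Dusp6 (1.632, on 4 to 9 reads per bound library) and Spry4, where calls over all 23602 genes went from 13098 to 4124. Leaving out single libraries gave 2 to 4 members and 9117 to 12504 genes. Quantile normalisation turned Spry2 to 0.227, Spred1 to 0.839, Etv5 to 0.204 and Fos to 0.339 in LT2i and Dusp4 to -0.039 at 24 h. Bins near the start turned Spry2 (0.146) and Ier3 (-0.575) in LT2i and Spred1 (-0.045) and Etv4 (0.03) at 24 h. Subtracting the input turned Egr1 at 24 h (0.365) and Spred1 in LT2i (0.019). Without single libraries the values at 24 h were -0.339 to 0.443 for Dusp4, -0.104 to 0.547 for Dusp6 and -0.319 to 0.11 for Egr1, and in LT2i -0.025 to 0.185 for Dusp4, -0.586 to 0.062 for Spry2 and -0.317 to 0.061 for Spred1.

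Same-numbered replicates deviated together in 15 of 18 pairs by a correlation over 0.1, with a range of -0.324 to 0.851. Most pairs thus varied together but not all, and the labels give no pairing. The main fit took no pairs, and the replicate block was run as an alternative. Among 12 libraries, 8 correlated best, on average, with those of their own number, which is a hint from the data and not the design. With the replicate block, 6, 7 and 6 members were called against serum, 6 from 6 to 24 h, 6 from 24 to 72 h, and 0 at 24 h and 4 in LT2i for H3K9me2, and calls over all genes from 24 to 72 h went from 3388 to 5288. The block added Dusp6 from 6 to 24 h (0.422, adjusted p = 0.0323) and Spry2 (0.309, adjusted p = 0.0398) and Spred1 (-0.264, adjusted p = 0.0424) from 24 to 72 h.

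Values of Spry4 in 2i rest on 0 to 11 reads per library, and those of H3K9me2 over Dusp6, Spry2, Fos and Ier3 on a few, so steps between them are imprecise. Serum replicates 1 and 2 were closer to each other than any other replicate pair within a group, and near counting error alone. Whether they came from separate cultures cannot be told from these values.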
